A study of Homo sapiens with 18 samples.

Results

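The genes described here encode the histone variants that cells make outside the burst of histone synthesis in S phase. They are the linker histones H1F0 (H1.0) and H1FX (H1X), the H2A variants H2AFJ (H2A.J), H2AFX (H2A.X), H2AFY (macroH2A1), H2AFZ (H2A.Z.1) and H2AFV (H2A.Z.2), the H3.3 genes H3F3A and H3F3B, and CENPA, the H3 variant of centromeres. They were chosen as the rows with these 10 symbols in the tables of both cell lines, and all 10 were present among the 23686 gene symbols of the tables. All 10 passed the filter on low counts in both lines, H1F0 in TMD8 only through treated libraries.

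RNA was measured by sequencing in OCI-Ly1 and TMD8, cell lines grown from human diffuse large B-cell lymphomas, OCI-Ly1 of the germinal-centre type and TMD8 of the activated B-cell type. Each line was given 0.01% DMSO as vehicle or JIB-04 at 150 or 500 nM, a small molecule that inhibits the Jumonji-domain (JmjC) histone demethylases. Each of the 6 groups had 3 libraries, described in the labels as technical triplicates, so the p-values here measure the spread between libraries and may not cover that between cultures. OCI-Ly1 was kept in IMDM and TMD8 in RPMI 1640, both with serum and antibiotics, so line and medium cannot be told apart, and the time of treatment is not given in the sources used here.

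Most histone protein is made from clustered genes that are transcribed in S phase, whose messages end in a stem-loop instead of a poly(A) tail. The variants mostly come from single genes outside those clusters, and H2AFX is known to share features of both kinds. Dedicated chaperones place them: HIRA and the DAXX-ATRX pair place H3.3, the SRCAP and p400 complexes exchange H2A.Z into nucleosomes, and HJURP loads CENP-A at centromeres. H2A.X is the form phosphorylated around DNA breaks, macroH2A marks silent chromatin, and H1.0 is known for accumulating in cells that stop dividing. Because ribosomal RNA was depleted and poly(A) was not selected, both kinds of histone message could enter the libraries.

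The promoter sequences of CENPA, H2AFZ and H2AFV, which fell with JIB-04 in both lines, and of H1FX, which rose in both, are shown for the motifs they hold. Each is the 250 bases before the gene's start, 5′ to 3′ on the gene's own strand, from RefSeq on GRCh38.p14. Capitals mark a CCAAT box, with the letters CCAAT on the gene's strand and ATTGG where it reads on the other. They also mark TTTGAA, known as the CHR element of genes of the late cell cycle, and its reverse complement, TTCAAA. No 2 of the marked matches overlap.
CENPA: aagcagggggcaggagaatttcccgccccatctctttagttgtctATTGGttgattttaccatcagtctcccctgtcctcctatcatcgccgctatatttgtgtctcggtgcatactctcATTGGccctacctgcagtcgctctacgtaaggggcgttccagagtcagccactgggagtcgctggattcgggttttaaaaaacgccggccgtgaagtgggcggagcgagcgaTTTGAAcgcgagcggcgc
H2AFZ: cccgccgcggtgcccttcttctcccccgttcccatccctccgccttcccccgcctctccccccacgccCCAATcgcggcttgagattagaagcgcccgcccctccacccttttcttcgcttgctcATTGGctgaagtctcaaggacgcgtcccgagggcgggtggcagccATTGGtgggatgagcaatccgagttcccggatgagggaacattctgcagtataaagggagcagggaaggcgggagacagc
H2AFV: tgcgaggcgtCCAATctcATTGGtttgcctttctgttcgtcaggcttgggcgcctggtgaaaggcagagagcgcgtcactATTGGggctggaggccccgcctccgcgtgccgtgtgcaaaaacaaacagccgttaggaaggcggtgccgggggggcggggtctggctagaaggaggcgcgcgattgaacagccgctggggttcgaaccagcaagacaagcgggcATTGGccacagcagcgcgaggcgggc
H1FX: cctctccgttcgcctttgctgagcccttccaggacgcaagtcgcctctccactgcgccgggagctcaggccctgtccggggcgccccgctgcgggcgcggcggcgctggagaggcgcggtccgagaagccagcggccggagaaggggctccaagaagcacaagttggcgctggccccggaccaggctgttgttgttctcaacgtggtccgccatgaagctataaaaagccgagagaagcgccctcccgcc
These stretches lie at chr2:26785806-26786055 on the plus strand for CENPA, and on the minus strand at chr4:99950276-99950525 for H2AFZ, chr7:44848088-44848337 for H2AFV and chr3:129316287-129316536 for H1FX. CENPA held 2 CCAAT matches and 1 TTTGAA match beginning 18 bases before the start. H2AFZ held 3 CCAAT matches, H2AFV held 4 and H1FX held 0, and none of these 3 genes held TTTGAA here. In H2AFZ a TTTGAA match (either strand) began 4 bases past the start, outside the printed stretch. With the 50 bases past the start added, 15.2% of promoters held TTTGAA. Among the others, H3F3B held 4 CCAAT matches, H2AFJ held 3, H2AFX held 4 and 1 TTTGAA match, and the 2 promoter entries of H2AFY held 0 and 2. The promoter entries of H3F3A held 1, 1, 0 and 1 CCAAT matches and no TTTGAA. At 500 nM H3F3B was called higher in OCI-Ly1 and lower in TMD8, and H2AFY was called lower in both lines. Whether the matches go with the direction of change was not tested. Over the 35116 promoters of the table, 32.0% held CCAAT in the same stretch, 9.53% held it at least 2 times and 13.3% held TTTGAA. H1FX, H2AFZ and H2AFX each held the letters TATAAA (searched on both strands, not capitalised) beginning 31 bases before the start. In H3F3B they began 29 bases before it. TATAAA lay anywhere in the 250 bases in 10.7% of promoters. Of the 10 genes, 9 matched the table, the other being H1F0. The matches describe letters only, and binding was not measured.

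Values below are normalised read counts (CPM, the read count relative to the scaled library total), scaled by TMM within each line, and are listed for replicates 1, 2 and 3. Fold changes are log2 values with standard errors (SE) from edgeR's quasi-likelihood test, and a gene was called at a Benjamini-Hochberg adjusted p under 0.05 over all genes tested. Library totals ran from 9550016 to 32651041 estimated counts. All 6 B-cell markers were expressed in both lines, with summed levels of 1106 to 1333 CPM in OCI-Ly1 and 2311 to 2916 CPM in TMD8. The B-cell sum was 1277 to 1329 CPM with DMSO and 1106 to 1148 at 500 nM in OCI-Ly1, and 2747 to 2916 and then 2311 to 2355 CPM in TMD8. The 6 T-cell markers summed to 4.95 to 24.6 CPM, the 5 myeloid markers to at most 4.399 CPM, the 5 erythroid markers to at most 2.25 CPM and the 6 epithelial and fibroblast markers to 13.6 to 49.1 CPM. The T-cell sum was 19.98 to 24.6 CPM with DMSO and 9.32 to 10.3 at 500 nM in OCI-Ly1, and 4.95 to 5.55 and then 6.85 to 7.88 CPM in TMD8. The epithelial and fibroblast sum was 15.8 to 18.1 CPM with DMSO and 13.6 to 14.3 at 500 nM in OCI-Ly1, and 18.8 to 19.6 and then 46.4 to 49.1 CPM in TMD8. The part of these markers in the results was not tested.

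Compared per length in vehicle-treated cells, H2AFZ had the highest level of the 10 rows in both lines. In OCI-Ly1 it stood at 1132 ± 44.3 TPM (a length-corrected share of each library's transcripts, mean ± SD, n = 3), ahead of H3F3B at 278 ± 3.81, H2AFY at 216 ± 5.64 and H2AFV at 213 ± 4.32 TPM. H2AFY and H2AFV overlapped across libraries, as did H2AFX (48.1 ± 4.79 TPM) and CENPA (45.1 ± 4.36 TPM), and the other neighbours in the order did not. H3F3A stood between these pairs at 63.3 ± 5.95 TPM, and H1FX (36.2 ± 0.289), H2AFJ (7.11 ± 0.287) and H1F0 (0.290 ± 0.104 TPM) came last. TMD8 began with the same 4 genes in the same order, from H2AFZ at 273 ± 18.3 to H2AFV at 55.0 ± 5.33 TPM, and ended with the same 3, from H1FX at 10.9 ± 0.203 TPM. Between them H2AFX (42.9 ± 4.94 TPM) came before H3F3A (20.4 ± 3.24) and CENPA (18.8 ± 2.37 TPM), and H3F3A and CENPA were the only neighbours in TMD8 whose libraries overlapped. With the row of its pseudogene H3F3AP4 added, H3F3A stood at 692.5 ± 25.3 TPM in OCI-Ly1, second to H2AFZ, and at 382.5 ± 43.4 TPM in TMD8, above it. Between the lines levels are compared on counts, and on TPM only as an alternative, because RNAs whose symbols start with MIR, with RMRP and RPPH1, took 58.2% of TMD8's TPM and 16.1% of OCI-Ly1's with DMSO. At 150 and 500 nM they took 65.6% and 71.8% in TMD8, and 15.8% and 22.8% in OCI-Ly1. The TPM of other genes thus depends on this share across doses too.

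On counts scaled over all 18 libraries, all 10 genes differed between the vehicle groups of the lines, as did 76.7% of the 16604 genes tested. In 8 of the 10 the level was lower in TMD8 (37.8% of all genes) and in 2 it was higher (39.0%). The H2A.Z genes showed the widest gaps among the well-counted genes, with H2AFV at 157 ± 3.88 CPM in TMD8 and 345 ± 8.07 in OCI-Ly1 (log2 difference -1.14, SE 0.05) and H2AFZ at 325 ± 3.74 and 693 ± 41.9 CPM (-1.09, SE 0.06). H2AFX went the other way, at 93.2 ± 3.61 CPM in TMD8 and 53.6 ± 6.29 in OCI-Ly1 (0.80, SE 0.08), as did H2AFJ at 25.9 ± 1.99 and 19.3 ± 0.408 CPM (0.42, SE 0.09). Both of these turned negative on the TPM scale (-0.16 for H2AFX, no longer called, and -0.42 for H2AFJ with a pseudocount of 1), where the median of all genes itself shifted. The other genes lower in TMD8 were H1FX (-0.76, SE 0.08), H3F3A (-0.66, SE 0.22), H2AFY (-0.64, SE 0.05), H3F3B (-0.52, SE 0.05), CENPA (-0.30, SE 0.08) and H1F0, which had 0 to 2 counts a library in TMD8 and 6 to 17 in OCI-Ly1. With H3F3AP4 added, H3F3A stood at 0.10 (adjusted p = 0.0826) and was not called, and H1F0 stood at 0.37 on centred TPM.

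At 150 nM in OCI-Ly1, none of the 10 genes was called by edgeR, beside 0.889% of the 15638 genes tested (0.748% higher and 0.141% lower). DESeq2 also called 0 of them, beside 1.72% of the genes it tested, and 1 of them, H3F3A, had an unadjusted p under 0.05 by edgeR. The 150 nM and DMSO libraries did not overlap for 2 of the 10, H1FX (higher) and H3F3A (lower), beside 14.0% of all genes. At 500 nM, 8 of the 10 were called in OCI-Ly1, beside 53.6% of all genes tested. Of these, 3 were higher (background 27.7%) and 5 lower (background 25.9%). On log2(TPM + 1) 3 were higher and 2 lower, beside 5739 and 2240 of the 15638 genes. With scaling by library size alone 3 were higher and 3 lower, beside 5472 and 3080 genes. With the TMM scaling the 10 had a median log2 fold change of -0.19, and that of all genes tested was 0.00. Between 150 and 500 nM, 6 of the 10 were called in OCI-Ly1 (2 higher, 4 lower), beside 46.2% of all genes (25.1% higher, 21.1% lower), and 6 did not overlap, beside 55.6%. Called were H1F0 (1.53), H1FX (0.44), H2AFY (-0.12), H2AFV (-0.19), H2AFZ (-0.35) and CENPA (-0.51), while H2AFJ (-0.22), H2AFX (-0.10), H3F3A (0.09) and H3F3B (0.04) were not.

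TMD8 moved already at the lower dose. At 150 nM 8 of the 10 were called, 2 higher and 6 lower, beside 44.2% of the 15363 genes tested (19.2% higher, 25.0% lower). At 500 nM 9 were called, 3 higher and 6 lower, beside 60.7% of all genes (29.9% higher, 30.7% lower), with a median log2 fold change of -0.27 against 0.04 for all genes. The genes called higher at each dose included H1F0, which passed the filter on low counts only through treated libraries. Between the doses 4 were called in TMD8, 1 higher and 3 lower, beside 28.7% of all genes (13.7% higher, 15.0% lower), and the same number did not overlap, beside 44.8%. Called were H1FX (0.55), H2AFV (-0.21), H2AFZ (-0.22) and CENPA (-1.08), while H1F0 (0.68), H3F3A (0.13), H2AFJ (0.02), H2AFY (-0.02), H3F3B (-0.04) and H2AFX (-0.05) were not. At 150 nM 8 did not overlap DMSO in TMD8, beside 51.4% of all genes. The 500 nM groups did not overlap those with DMSO for 8 of the 10 genes in OCI-Ly1 and 9 in TMD8, where 60.7% and 66.4% of all genes tested did not overlap.

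**Figure D1:**
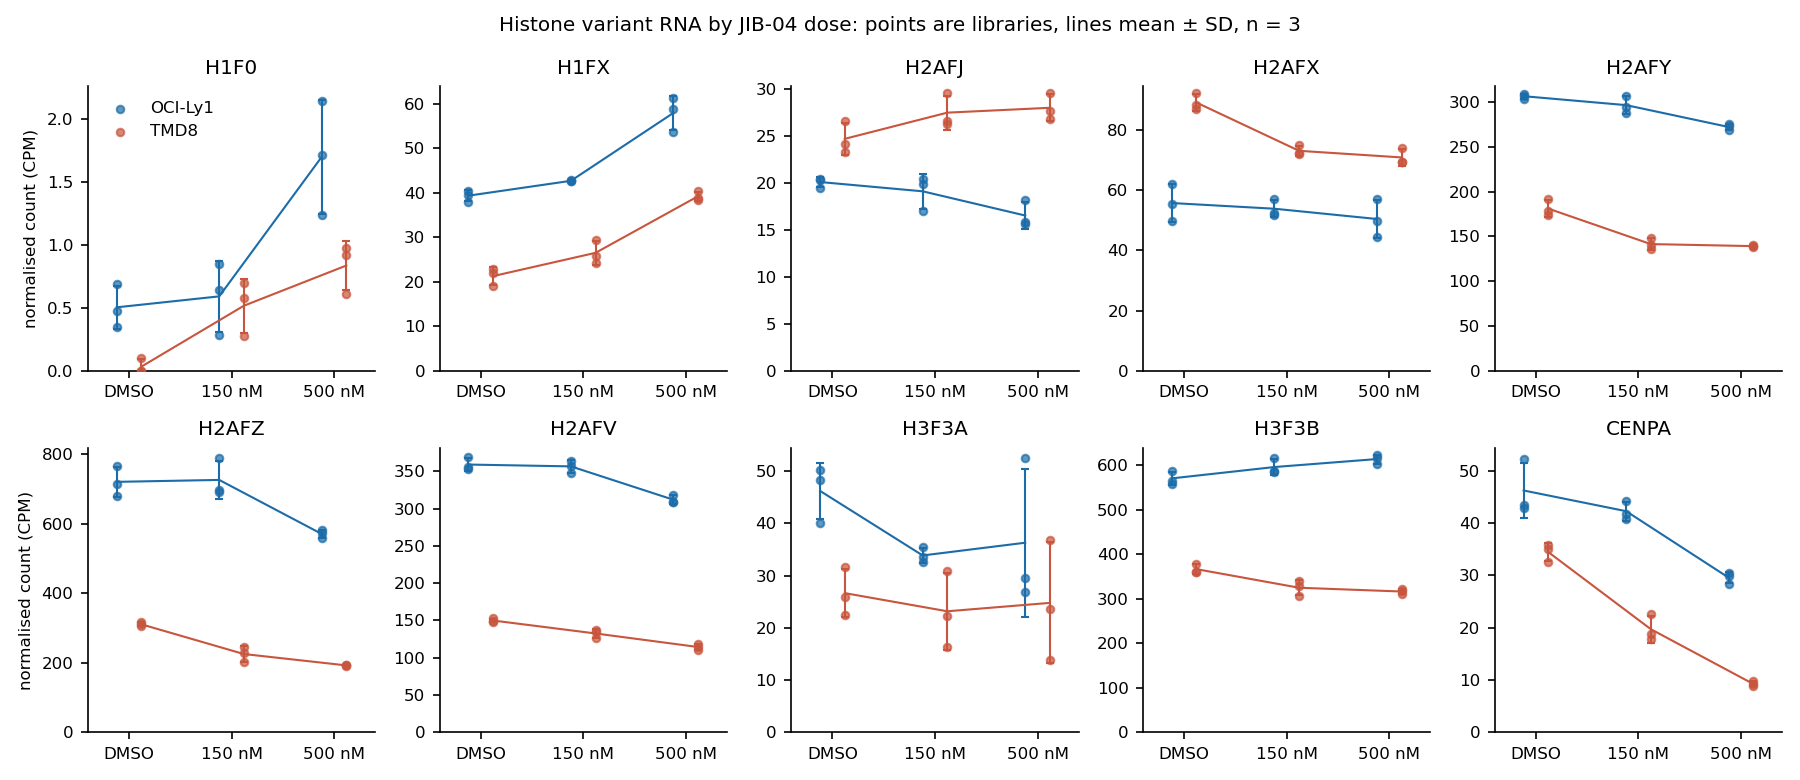
Normalised read count (CPM, scaled within each line) of the 10 histone variant genes against JIB-04 dose in OCI-Ly1 (blue) and TMD8 (red). Points are libraries, and lines join group means with SD bars (n = 3). CENPA falls the most relative to its own level with DMSO, from 34.4 to 9.25 CPM in TMD8, while H1FX climbs in both lines and H3F3A scatters widely between libraries.

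CENPA, which marks centromeres and whose message is known to peak late in the cell cycle, fell the most of the 10 on the log2 scale at 500 nM. In OCI-Ly1 its 3 libraries read 42.9, 52.2 and 43.5 CPM with DMSO, 41.7, 40.8 and 44.3 at 150 nM, then 30.4, 28.3 and 29.9 at 500 nM. The DMSO and 150 nM libraries overlapped, and those at 500 nM lay below both. The change against DMSO was -0.13 (SE 0.08, adjusted p = 0.626) at 150 nM and -0.64 (SE 0.08, adjusted p = 2.16e-06) at 500 nM.

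In TMD8 CENPA read 35.7, 35.0 and 32.6 CPM with DMSO, 22.6, 17.8 and 18.7 at 150 nM, then 9.75, 9.20 and 8.80 at 500 nM. No 2 of these groups overlapped, so the level stepped down with each dose. The change against DMSO was -0.81 (SE 0.08, adjusted p = 6.27e-07) at 150 nM and -1.89 (SE 0.10, adjusted p = 2.2e-11) at 500 nM, and that between the doses was -1.08 (SE 0.10, adjusted p = 9.09e-07). Written as OCI-Ly1 minus TMD8, the difference in response was 0.69 (SE 0.12, adjusted p = 0.000134) at 150 nM and 1.28 (SE 0.13, adjusted p = 1.52e-08) at 500 nM, the larger fall being in TMD8. Of the 10 variants, 5 differed between the lines in this way at 150 nM (4 positive, 1 negative) and 8 at 500 nM (5 positive, 3 negative). Of the 16604 genes tested, 23.3% did at 150 nM (15.0% positive, 8.33% negative) and 46.4% at 500 nM (28.2% positive, 18.1% negative). Not called at 150 nM were H1FX (-0.19), H2AFJ (-0.22), H2AFV (0.18), H2AFX (0.24) and H3F3A (-0.23), and at 500 nM H2AFX (0.22) and H3F3A (-0.25). In bulk RNA, fewer cells in the phase that transcribes a gene and less RNA per cell cannot be told apart.

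Cell cycle markers moved beside CENPA. Of the 16 on the list, 11 were lower and 3 higher in OCI-Ly1 at 500 nM, beside 25.9% and 27.7% of all genes. In TMD8 11 were lower and 2 higher, beside 30.7% and 29.9% of all genes. The list's median log2 fold changes were -0.45 and -1.01. The summed level of the list was 4727 to 5030 CPM with DMSO and 3884 to 3939 CPM at 500 nM in OCI-Ly1, and 3663 to 4085 and 2112 to 2157 CPM in TMD8. CCNB1, the mitotic cyclin B1, went from 192 ± 13.7 to 35.0 ± 1.97 CPM in TMD8 (log2 fold change -2.45, SE 0.09) and from 294 ± 6.58 to 122 ± 3.50 CPM in OCI-Ly1 (-1.27, SE 0.05). It had the largest change of the listed genes called in both lines, and the genes called higher are not named here. The part of the cell cycle in the fall of CENPA was not tested.

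Of the genes that load CENP-A, 6 of the 9 tested were lower in OCI-Ly1 at 500 nM (25.9% of all genes) and 8 of 9 in TMD8 (30.7%), and 9 of 9 were lower in TMD8 at 150 nM (25.0%). None was higher by edgeR or DESeq2 in these comparisons, nor higher at an unadjusted p under 0.05. On log2(TPM + 1), though, 1 was higher and 4 lower in OCI-Ly1 at 500 nM, beside 5739 and 2240 of 15638 genes. The list's median was -0.33 in OCI-Ly1 and -0.55 in TMD8 at 500 nM. PLK1, the kinase that licenses loading, went from 193 ± 14.0 to 25.1 ± 1.005 CPM in TMD8 (-2.93, SE 0.09) and from 103 ± 6.90 to 37.1 ± 1.89 CPM in OCI-Ly1 (-1.46, SE 0.07). HJURP, the CENP-A chaperone, went from 105 ± 4.57 to 55.8 ± 1.04 CPM in TMD8 (-0.91, SE 0.05) and from 107 ± 5.28 to 83.1 ± 2.70 CPM in OCI-Ly1 (-0.36, SE 0.06). OIP5, a subunit of the Mis18 complex that recruits HJURP, changed by -0.79 (SE 0.11) in TMD8 and by -0.26 (SE 0.07) in OCI-Ly1.

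Of 17 other centromere genes, 6 were higher and 5 lower in OCI-Ly1 at 500 nM, beside 27.7% and 25.9% of all genes. The list's median there was 0.07. These counts were 9 and 4 on log2(TPM + 1), 9 and 5 by library size, and 4 and 5 on centred TPM. Of all 15638 genes, 5739 were higher and 2240 lower on log2(TPM + 1). By library size 5472 and 3080 were, and 2902 and 6079 on centred TPM. In TMD8 3 were higher and 11 lower, beside 29.9% and 30.7% of all genes. On log2(TPM + 1) 0 were higher and 14 lower there, beside 1751 and 7581 of 15363 genes. The 3 named here are those with the largest change among the genes called in both lines. All 3 fell, although more of the list was called higher than lower in OCI-Ly1. CENPE, a kinetochore motor, changed by -1.04 (SE 0.08) in OCI-Ly1 and -1.59 (SE 0.07) in TMD8. CENPF, a large kinetochore protein, changed by -0.75 (SE 0.05) and -1.32 (SE 0.06), and INCENP, the scaffold of the chromosomal passenger complex, by -0.52 (SE 0.06) and -0.80 (SE 0.05). All 3 differed between the lines at 500 nM (0.58, 0.59 and 0.31 as OCI-Ly1 minus TMD8).

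**Figure D2:**
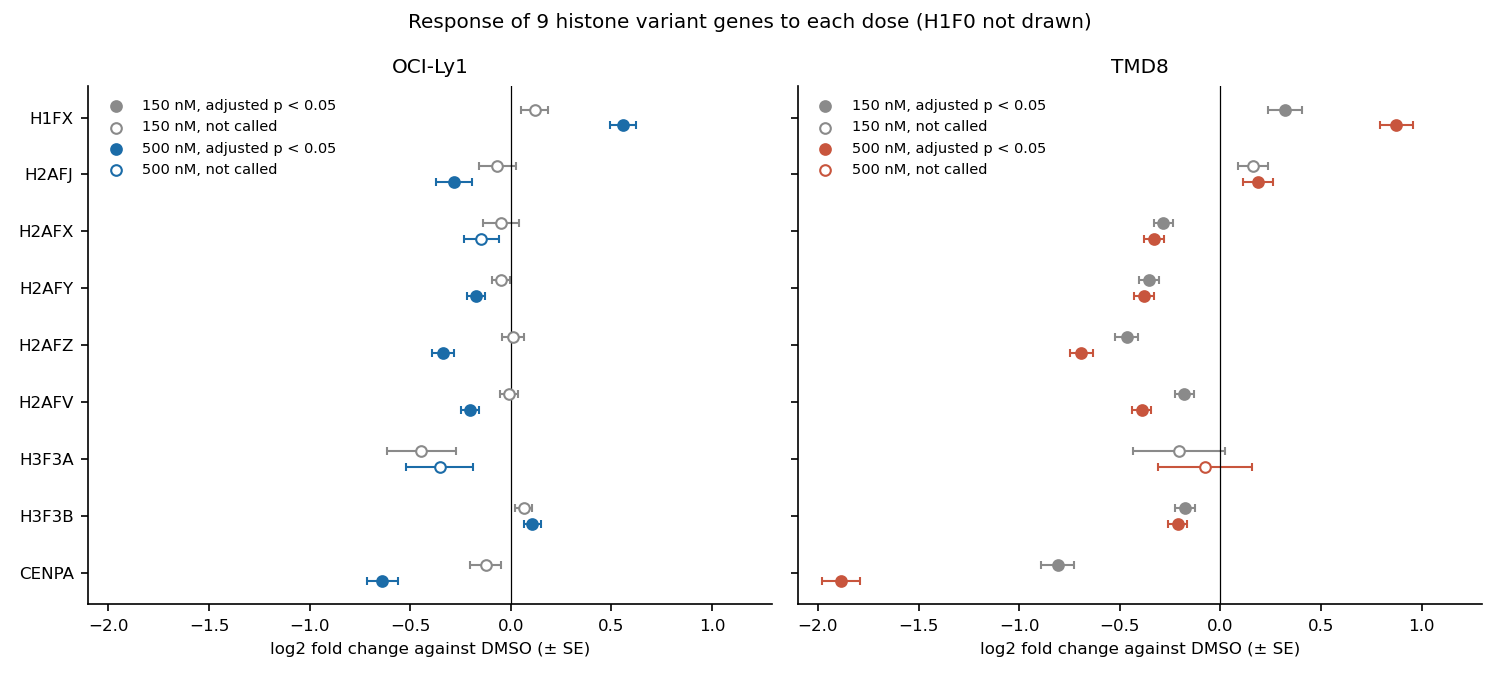
Log2 fold change against DMSO (horizontal axis, bars are SE) of 9 histone variant genes at 150 nM (grey) and 500 nM (coloured) in OCI-Ly1 and TMD8. Filled points were called at an adjusted p under 0.05. All grey points in OCI-Ly1 are open, whereas CENPA at 500 nM reaches -0.64 in OCI-Ly1 and -1.89 in TMD8. H1F0 is left out because its vehicle counts in TMD8 were at the floor.

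The H2A.Z genes fell in both lines. H2AFZ, the main source of H2A.Z message, read 714, 766 and 679 CPM with DMSO, 691, 789 and 696 at 150 nM, then 580, 573 and 557 at 500 nM in OCI-Ly1. The DMSO and 150 nM groups overlapped and the 500 nM libraries lay below both, with a change of -0.34 against DMSO (SE 0.05, adjusted p = 5.98e-05). In TMD8 it read 305, 316 and 311 CPM with DMSO, 245, 229 and 202 at 150 nM, then 193, 192 and 193 at 500 nM. Here all 3 groups were apart, with changes of -0.47 (SE 0.06, adjusted p = 4.48e-06) and -0.69 (SE 0.06, adjusted p = 1.17e-08). The difference between the lines was 0.48 at 150 nM (SE 0.09, adjusted p = 0.000281) and 0.38 at 500 nM (SE 0.09, adjusted p = 0.000971).

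H2AFV, which encodes a near-identical H2A.Z protein, followed with smaller changes. OCI-Ly1 libraries read 355, 369 and 353 CPM with DMSO, 348, 364 and 357 at 150 nM, then 308, 308 and 319 at 500 nM. Only the 500 nM group lay apart, at -0.20 (SE 0.04, adjusted p = 0.000975). TMD8 libraries read 153, 148 and 149 CPM with DMSO, 137, 135 and 126 at 150 nM, then 114, 111 and 118 at 500 nM. The 3 groups did not overlap, and the changes were -0.18 (SE 0.05, adjusted p = 0.00488) and -0.39 (SE 0.05, adjusted p = 1.39e-06). On the TPM scale the OCI-Ly1 change was -0.07 and was no longer called. At 150 nM the TMD8 call was lost without TMD8 150 nM replicate 3 (-0.11, adjusted p = 0.0729) and with scaling by library size alone (-0.09, adjusted p = 0.0691).

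H2AFZ made up 84.2% ± 0.473 (SD, n = 3) of the TPM of the H2A.Z pair in OCI-Ly1 with DMSO, followed by 84.4% ± 0.760 at 150 nM, then 83.0% ± 0.711 at 500 nM. In TMD8 the shares were 83.2% ± 0.408, 80.4% ± 0.674 and 79.8% ± 0.560. Libraries of the treated TMD8 groups, at 79.1% to 81.0%, lay below those with DMSO at 82.8% to 83.6%. Such a share is taken within a library and does not depend on how libraries are scaled.

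Of 19 genes of the H2A.Z exchange machinery, 7 were higher and 6 lower in OCI-Ly1 at 500 nM (4 and 8 on centred TPM). All genes tested gave 27.7% higher and 25.9% lower there, and on centred TPM 2902 higher and 6079 lower of 15638. In TMD8 2 of the 19 were higher and 11 lower, beside 29.9% and 30.7% of all genes. ANP32E, the chaperone that removes H2A.Z, stood at 280 ± 25.7 and then 153 ± 7.04 CPM in OCI-Ly1 (-0.87, SE 0.08) and went from 255 ± 8.25 to 108 ± 5.35 CPM in TMD8 (-1.25, SE 0.06). RUVBL1, an ATPase shared by the exchange complexes, changed by -0.55 (SE 0.06) and -0.99 (SE 0.07). SRCAP, the ATPase that deposits H2A.Z, moved in opposite directions, from 42.1 ± 2.75 to 82.4 ± 0.463 CPM in OCI-Ly1 (0.97, SE 0.07) and from 368 ± 7.09 to 319.5 ± 6.79 CPM in TMD8 (-0.20, SE 0.05). Its difference between the lines was 1.20 (SE 0.08, adjusted p = 4.34e-12).

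H2AFX, whose gene is known to give both a stem-loop and a polyadenylated message, was lower in TMD8. There it read 92.1, 86.7 and 88.1 CPM with DMSO, 71.8, 72.2 and 74.9 at 150 nM, then 69.3, 69.1 and 73.9 at 500 nM. Both doses lay below DMSO and overlapped each other, with changes of -0.28 (SE 0.05, adjusted p = 0.000129) and -0.33 (SE 0.05, adjusted p = 1.39e-05). In OCI-Ly1 it read 62.1, 55.3 and 49.6 CPM with DMSO, 57.1, 52.4 and 51.8 at 150 nM, then 49.8, 56.9 and 44.5 at 500 nM. These groups overlapped, and the 500 nM value of -0.15 (SE 0.09, adjusted p = 0.175) did not pass the test. It was called at -0.24 without OCI-Ly1 500 nM replicate 2 (adjusted p = 0.0357) and at -0.23 without OCI-Ly1 DMSO replicate 3 (adjusted p = 0.043). The difference between the lines was 0.22 at 500 nM (SE 0.11, adjusted p = 0.11) and was not called.

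Among the kinases, phosphatases and readers of phosphorylated H2A.X, 5 of 13 tested were lower and 2 higher in OCI-Ly1 at 500 nM. On log2(TPM + 1) this count turned to 4 higher and 2 lower, beside 5739 and 2240 of 15638 genes. In TMD8 7 of 12 were lower and 2 higher. Of all genes, 25.9% were lower and 27.7% higher in OCI-Ly1, and 30.7% and 29.9% in TMD8. MDC1, the reader that binds the phosphorylated tail, changed by -0.43 (SE 0.06) in OCI-Ly1 and -0.67 (SE 0.05) in TMD8. PPP2CA, a phosphatase subunit that removes the mark, changed by -0.22 (SE 0.05) and -0.50 (SE 0.05), and ATR, one of the kinases that make it, by -0.27 (SE 0.05) and -0.48 (SE 0.05).

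H2AFY, which encodes the macroH2A1 proteins, responded more in TMD8 than in OCI-Ly1 at both doses. TMD8 libraries read 192, 174 and 178 CPM with DMSO, 148, 140 and 136 at 150 nM, then 139, 140 and 139 at 500 nM. The treated groups overlapped each other and lay below DMSO, with changes of -0.36 (SE 0.05, adjusted p = 1.59e-05) and -0.38 (SE 0.05, adjusted p = 3.26e-06). OCI-Ly1 libraries read 304, 309 and 307 CPM with DMSO, 295, 288 and 307 at 150 nM, then 275, 268 and 273 at 500 nM. The 500 nM libraries lay below the others, at -0.17 (SE 0.05, adjusted p = 0.00397), and this call was lost with scaling by library size alone (-0.08, adjusted p = 0.106) and on the TPM scale (-0.03, adjusted p = 0.604). The differences between the lines were 0.32 (SE 0.07, adjusted p = 0.00218) at 150 nM and 0.24 (SE 0.07, adjusted p = 0.00895) at 500 nM. The messages of its splice forms were not separated in these tables.

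H2AFJ, a little-expressed H2A variant known to accumulate in senescent cells, went opposite ways in the lines. In OCI-Ly1 it read 19.5, 20.4 and 20.4 CPM with DMSO, 20.4, 19.9 and 17.0 at 150 nM, then 15.8, 18.2 and 15.6 at 500 nM. In TMD8 it read 26.6, 23.3 and 24.2 CPM with DMSO, 26.6, 26.3 and 29.6 at 150 nM, then 29.6, 26.8 and 27.6 at 500 nM. The 500 nM group lay below DMSO in OCI-Ly1 and above it in TMD8, with no overlap in either. Neither call was firm: -0.28 in OCI-Ly1 (SE 0.09, adjusted p = 0.014) was lost on log2(TPM + 1) (-0.12, adjusted p = 0.28), by library size (-0.20, adjusted p = 0.081) and without OCI-Ly1 500 nM replicate 1 or 3 (-0.26 and -0.24, adjusted p = 0.0564 and 0.0619). In TMD8 0.19 (SE 0.08, adjusted p = 0.0423) was lost by DESeq2 (0.16, adjusted p = 0.187) and without any of 4 single libraries, down to 0.14, and stood at -0.20 on log2(TPM + 1). The difference between the lines at 500 nM was -0.44 (SE 0.12, adjusted p = 0.00457), and 0.09 on log2(TPM + 1), where it was not called.

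The row named H3F3A held only a small part of the counts it shared with a pseudogene row. The tables also list H3F3AP4, a processed pseudogene copied from that message, and H3F3A held 3.71% to 12.4% of the counts of the 2 rows together, depending on the library. Estimated counts of both rows were fractional in all 18 libraries, that is, not within 0.001 of a whole number. This was not particular to them, as counts of H2AFV were also fractional in all 18. Whole counts were found in 1 library for H3F3B, 3 for H2AFY, 12 for H2AFX and 17 for CENPA. H3F3A alone read 48.3, 50.2 and 40.1 CPM with DMSO, 32.7, 35.4 and 33.5 at 150 nM, then 29.5, 52.6 and 26.8 at 500 nM in OCI-Ly1. In TMD8 it read 25.8, 22.5 and 31.6, then 16.3, 30.9 and 22.3, then 23.7, 36.9 and 13.8 CPM. Within 500 nM the highest library stood far above the other two in OCI-Ly1, and the SD was 46.7% of the mean in TMD8. No change of this row against DMSO was called in either line. The OCI-Ly1 value at 150 nM, -0.44 (SE 0.17, adjusted p = 0.346), was called with no filter on low counts (adjusted p = 0.0104) and when only the 2 groups were fitted (adjusted p = 0.0422), and the OCI-Ly1 change at 500 nM went from -0.35 (SE 0.17, adjusted p = 0.0837) to -0.71 (adjusted p = 1.64e-05) without OCI-Ly1 500 nM replicate 2.

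Adding the 2 rows, a choice made after this split was seen, gave narrow groups. In OCI-Ly1 the sum was 481, 501 and 500.1 CPM with DMSO, 474, 503 and 515 at 150 nM, then 418, 425 and 426 at 500 nM. In TMD8 it was 504, 483 and 476 CPM, then 438, 415 and 380.0, then 376, 391 and 372. The sum was level at 150 nM in OCI-Ly1 (0.01, SE 0.04, adjusted p = 0.971) and lower at 500 nM (-0.22, SE 0.04, adjusted p = 0.000412). In TMD8 it was lower at both doses, by -0.25 (SE 0.05, adjusted p = 0.000972) and -0.36 (SE 0.05, adjusted p = 1.21e-05). H3F3AP4 alone gave -0.21 in OCI-Ly1 and -0.38 in TMD8 at 500 nM, so the sum moved with its larger row. Whether reads of the pseudogene's own transcript are among them was not tested.

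**Figure D3:**
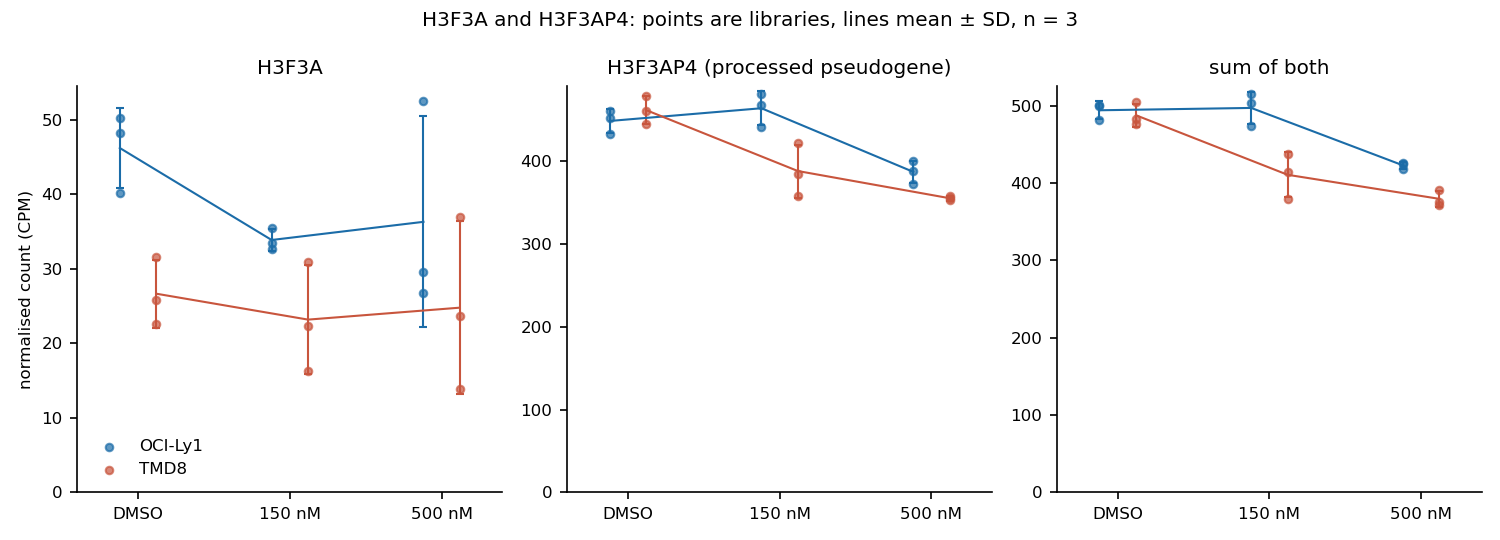
Normalised read count (CPM) of H3F3A, of its processed pseudogene H3F3AP4 and of their sum against JIB-04 dose in OCI-Ly1 (blue) and TMD8 (red). Points are libraries, and lines join group means with SD bars (n = 3). H3F3A alone scatters from 13.8 to 52.6 CPM, whereas the sum is tight and drops from 494 to 423 CPM in OCI-Ly1 and, in TMD8, from 488 to 380 CPM.

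H3F3B, the other H3.3 gene, changed little and in opposite directions, though the call in OCI-Ly1 was not firm. OCI-Ly1 libraries read 566, 588 and 559 CPM with DMSO, 587, 617 and 584 at 150 nM, then 623, 616 and 603 at 500 nM. The 500 nM group lay above DMSO by 0.11 (SE 0.04, adjusted p = 0.0455), a call lost without any of 5 single libraries (adjusted p up to 0.144). It was also lost with no filter on low counts (0.09, adjusted p = 0.112) and on centred TPM (0.02, adjusted p = 0.745). TMD8 libraries read 379, 361 and 361 CPM with DMSO, 341, 328 and 306 at 150 nM, then 311, 322 and 317 at 500 nM. Both doses lay below DMSO, at -0.17 (SE 0.05, adjusted p = 0.00707) and -0.21 (SE 0.05, adjusted p = 0.00106). The call at 150 nM was lost without TMD8 150 nM replicate 3 (-0.10, adjusted p = 0.0935). By library size (-0.09, adjusted p = 0.0749) and with only the compared groups (-0.14, adjusted p = 0.0649) it was lost too. The difference between the lines was 0.24 (SE 0.07, adjusted p = 0.0136) at 150 nM and 0.35 (SE 0.07, adjusted p = 0.000273) at 500 nM.

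Genes that deposit H3.3 did not move as a block. In OCI-Ly1 3 of 7 were higher and 0 lower at 500 nM by both edgeR and DESeq2. Also at an unadjusted p under 0.05, 0 were lower there. By edgeR, all genes gave 27.7% higher and 25.9% lower. In TMD8 2 of 7 were higher and 3 lower, beside 29.9% and 30.7% of all genes. On centred TPM the OCI-Ly1 count was 1 higher and 1 lower, beside 2902 and 6079 of 15638 genes. In TMD8 0 were higher and 5 lower on log2(TPM + 1), beside 1751 and 7581 of 15363 genes. UBN2, a HIRA partner, was called higher in both lines on counts (0.21, SE 0.07, in OCI-Ly1 and 0.59, SE 0.06, in TMD8), though not in TMD8 on log2(TPM + 1). HIRA itself stood at 0.06 (SE 0.06, adjusted p = 0.426) in OCI-Ly1 and fell in TMD8 from 75.4 ± 4.47 to 51.3 ± 3.41 CPM (-0.55, SE 0.07). DAXX stood at -0.02 (SE 0.05, adjusted p = 0.767) in OCI-Ly1 and fell in TMD8 from 122 ± 5.96 to 84.6 ± 3.16 CPM (-0.52, SE 0.05), and both differed between the lines (0.64 and 0.53).

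Of 10 genes for proteins that bind H3.3 or macroH2A, 5 were lower, 2 higher and 3 not called in OCI-Ly1 at 500 nM (4 lower and 2 higher on log2(TPM + 1)). In TMD8 6 were lower and 2 higher (8 and 0 on log2(TPM + 1)). Of all genes, 25.9% were lower and 27.7% higher in OCI-Ly1, and 30.7% and 29.9% in TMD8. On log2(TPM + 1), 2240 of 15638 were lower and 5739 higher in OCI-Ly1. In TMD8 7581 of 15363 were lower and 1751 higher on that scale. LBR, a nuclear-envelope protein, changed by -0.45 (SE 0.06) in OCI-Ly1 and -0.88 (SE 0.06) in TMD8. HDAC2, a histone deacetylase, changed by -0.27 (SE 0.05) and -0.74 (SE 0.05), and PARP1, which macroH2A1 binds, by -0.27 (SE 0.04) and -0.61 (SE 0.05).

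The linker histones rose. H1FX read 39.6, 40.5 and 38.0 CPM with DMSO, 42.8, 42.6 and 42.7 at 150 nM, then 58.9, 61.3 and 53.7 at 500 nM in OCI-Ly1. All 3 groups were apart, but the rise of 0.12 at 150 nM (SE 0.07, adjusted p = 0.578) was not called, and that at 500 nM was 0.56 (SE 0.06, adjusted p = 1.21e-06). In TMD8 it read 19.0, 21.9 and 23.0 CPM with DMSO, 24.2, 25.8 and 29.5 at 150 nM, then 38.4, 38.9 and 40.4 at 500 nM. Each dose stood above the one before, with changes of 0.32 (SE 0.08, adjusted p = 0.00485) and 0.87 (SE 0.08, adjusted p = 5.71e-08). The call at 150 nM was lost on log2(TPM + 1) (0.15, adjusted p = 0.262). At 500 nM the difference between the lines was -0.29 (SE 0.10, adjusted p = 0.0253), the larger rise being in TMD8, and 0.20 with no call on log2(TPM + 1).

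H1F0 was rarely counted. OCI-Ly1 libraries held 12, 6 and 17 counts with DMSO, 21, 7 and 12 at 150 nM, then 72, 32 and 52 at 500 nM. In CPM the 500 nM group lay above the others, and the change was 1.72 (SE 0.38, adjusted p = 0.000961). The ratio of pooled rates to DMSO was 3.33 at 500 nM (exact 95% interval 2.30 to 4.95) and 1.13 at 150 nM (0.700 to 1.83), intervals that cover counting error only. TMD8 libraries held 0, 0 and 2 counts with DMSO, 8, 4 and 14 at 150 nM, then 14, 13 and 6 at 500 nM. The vehicle group was thus at or under the floor of 3 counts in every library, and both doses were called higher (adjusted p = 0.000717 and 3.26e-05) with a size that the counts barely bound. The row passed the filter on low counts only through treated libraries, and with DMSO and a single dose fitted it was not tested. These calls thus rest on the groups where it is high. The pooled ratios were 14.4 (3.59 to 125) at 150 nM and 23.0 (5.89 to 198) at 500 nM.

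Variant and replication-dependent genes were also set side by side. Of 68 replication-dependent histone genes in the tables, 61 of the 63 tested were lower and 1 higher in OCI-Ly1 at 500 nM, with a median log2 fold change of -1.34. In TMD8 59 of 62 were lower and 1 higher, with a median of -1.67. Of all genes, 25.9% were lower in OCI-Ly1 and 30.7% in TMD8. The 10 variants had medians of -0.19 and -0.27 in the same comparisons. The replication-dependent H2A genes together went from 6421 ± 338 to 2605 ± 118 CPM in OCI-Ly1 and, in TMD8, from 3023 ± 163 to 1015 ± 26.8 CPM. The summed level of the 10 variants went from 2164 ± 81.2 to 1961 ± 31.6 CPM in OCI-Ly1 and, in TMD8, from 1205 ± 20.8 to 936 ± 10.1 CPM.

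Although the H2A.Z genes fell, their share beside the 16 replication-dependent H2A genes was larger at 500 nM in both lines and at 150 nM in TMD8. In OCI-Ly1 libraries it was 5.15%, 5.62% and 5.46% of the summed TPM with DMSO, 5.55%, 6.77% and 5.89% at 150 nM, then 10.2%, 9.82% and 10.5% at 500 nM. In TMD8 it was 4.61%, 5.06% and 5.05% with DMSO, 6.22%, 6.63% and 6.57% at 150 nM, then 9.16%, 9.30% and 9.04% at 500 nM. The 500 nM libraries stood above all others of their line, and in OCI-Ly1 those at 150 nM overlapped those with DMSO. No test was made of the shares.

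The H3.3 rows with H3F3AP4, beside the 13 replication-dependent H3 genes, went from 4.70% ± 0.466 to 10.7% ± 0.312 in OCI-Ly1 and, in TMD8, from 6.75% ± 0.115 to 17.97% ± 0.554. Without H3F3AP4 the shares were lower and still larger at 500 nM, from 1.70% ± 0.113 to 4.47% ± 0.107 and from 1.77% ± 0.0801 to 5.65% ± 0.542. H1FX beside the 5 replication-dependent H1 genes went from 0.232% ± 0.00465 to 0.975% ± 0.0408 in OCI-Ly1 and, in TMD8, from 0.369% ± 0.0572 to 2.08% ± 0.0590. All of these shares are of RNA, and none measures protein in chromatin.

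**Figure D4:**
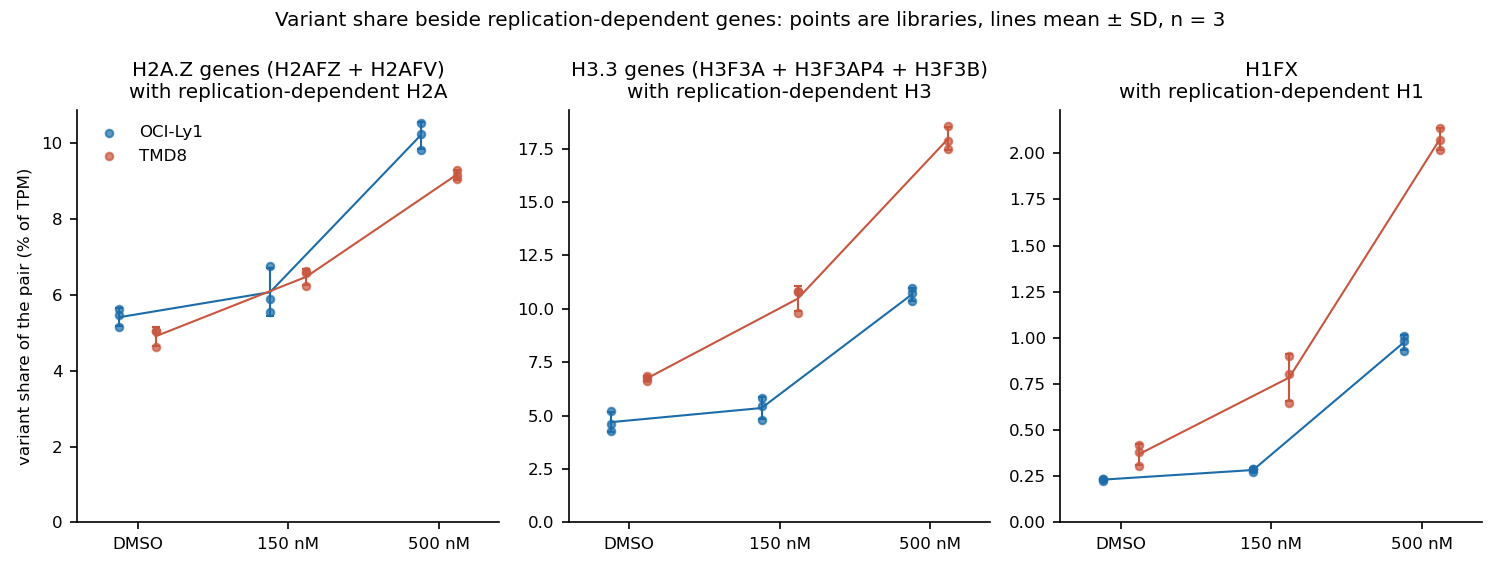
Share (% of TPM, vertical axis) of H2A.Z, H3.3 and H1FX message beside the replication-dependent genes of the same histone class, by JIB-04 dose in OCI-Ly1 (blue) and TMD8 (red). Points are libraries, and lines join group means with SD bars (n = 3). At 500 nM each share stands above its DMSO group, as for H2A.Z at 10.2% against 5.41% in OCI-Ly1 and 9.17% against 4.91% in TMD8.

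Chaperones that work with new histones at replication forks were called in the lower direction. At 500 nM 5 of 10 were lower in OCI-Ly1 and 7 of 10 in TMD8, beside 25.9% and 30.7% of all genes. None of the 10 was higher by edgeR or DESeq2, or at an unadjusted p under 0.05. However, on log2(TPM + 1) 3 were higher and 2 lower in OCI-Ly1, beside 5739 and 2240 of 15638 genes. SSRP1, a subunit of the FACT complex, changed by -0.17 (SE 0.05) in OCI-Ly1 and -0.80 (SE 0.05) in TMD8, and IPO4, the importin for new H3 and H4, by -0.32 (SE 0.06) and -0.80 (SE 0.05). NASP, a store for free H3 and H4, changed by -0.65 (SE 0.05) and -0.58 (SE 0.05), and its difference between the lines, -0.03 (SE 0.08, adjusted p = 0.747), was not called.

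Of the 8 factors that make or process the stem-loop messages, 1 was higher and 2 were lower in OCI-Ly1 at 500 nM. On log2(TPM + 1) 4 were higher and 0 lower there, beside 5739 and 2240 of 15638 genes. In TMD8 4 were lower and 0 higher, with 0 higher also by DESeq2 and at an unadjusted p under 0.05. Of all genes, 27.7% were higher and 25.9% lower in OCI-Ly1, and 29.9% and 30.7% in TMD8. SLBP, which binds the stem-loop, changed by -0.14 (SE 0.06, adjusted p = 0.0425) in OCI-Ly1 and -0.40 (SE 0.07) in TMD8. CPSF3, the nuclease that cuts these messages, changed by -0.32 (SE 0.06) and -0.58 (SE 0.07). LSM10, part of the U7 particle that guides the cut, stood at 0.03 (SE 0.10, adjusted p = 0.813) in OCI-Ly1 and changed by -0.57 (SE 0.10) in TMD8.

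At 150 nM in OCI-Ly1, edgeR called 0 of the 109 tested genes of these chaperone, exchange, reader, centromere and cell cycle lists. It called 0.889% of all genes. DESeq2 called 3 of the 108 it tested, beside 1.72% of all genes. By edgeR 21 genes on these lists had an unadjusted p under 0.05. The share of all genes at that level was not computed.

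The genes whose levels followed a variant most closely were found by Pearson's r of log2 CPM over the 18 libraries after removing each line's mean, among 9940 genes with at least 5 CPM on average in both lines. The libraries of a group share a treatment, so these values describe these data and carry no p. UBE2C, a mitotic ubiquitin-conjugating enzyme, was closest to CENPA (r = 0.993), followed by RRP1B (0.986). PRDX3 (0.983) and GINS1 (0.978), the latter a subunit of the replicative helicase, were closest to H2AFZ. SLC25A17 (0.984) and the mitotic kinesin KIF20A (0.979) were closest to H2AFV, and the nucleoporins NUP88 (0.975) and NUP98 (0.971) to H2AFY. RDH10 (0.978) and MC1R (0.975) were closest to H1FX, and FBXO32 (0.937) and CSRNP2 (0.936) to H1F0. BRD9 (0.922) led for H2AFX and GLYATL1 (0.904) for H2AFJ. For H3F3A no gene went above LRWD1 at 0.774.

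Among the variants themselves, H2AFV went with H2AFZ (r = 0.954) and with CENPA (0.954), and H2AFZ with CENPA (0.921). H1FX went with H1F0 (0.838) and against H2AFV (-0.963) and CENPA (-0.943). The H3F3A row stood apart from its partner gene H3F3B (0.04), and H2AFJ from H2AFZ (-0.10). That row holds only a small, varying part of the counts it shares with H3F3AP4. The r of their sum with H3F3B was not computed.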

How the data were processed

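RNA of 18 libraries (2 lines, 3 doses, 3 libraries a group) was sequenced in paired reads of 101 cycles after depletion of ribosomal RNA, per the labels' protocols. The deposited tables hold, for each gene symbol and library, the authors' estimated counts and TPM, a length-corrected share of each library. The submitters' processing notes name kallisto 0.46.0, R 4.3.1, DESeq2 1.40.2 and hg19, and the annotation behind the symbols is not given in the sources used here. Estimated counts are shared out between similar transcripts, so a gene and its pseudogene can trade reads.

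Estimated counts were rounded and tested in R 4.3.3 with edgeR 4.0.16 (quasi-likelihood, TMM, low counts filtered by group, no covariates). The 9 libraries of a line were fitted together for doses, and all 18 for differences between lines. P-values were adjusted by Benjamini-Hochberg over all genes tested. Alternatives were DESeq2 1.42.0, other scalings, no filter, limma 3.58.1 on log2(TPM + 1) or log2(TPM + 0.1), also centred on each library's median, a replicate block, the compared groups alone, each library left out, and H3F3A summed with H3F3AP4. The last was added after seeing the data.

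The genes, lists and tests were chosen with earlier results of these data known. The rule names all 10 genes in every comparison, and some that were not called are given by counts alone. From each list at most 3 genes are named, those with the largest change among the genes called at 500 nM in both lines, or in 1 line where fewer were. For likeness the 2 closest genes were taken, of which the text prints 1 or 2, and those of H3F3B are not reported here. Older symbols were matched (CENPC as CENPC1, CENPU as MLF1IP). Library totals ran from 9550016 to 32651041 counts, which limits H1F0 most. No pair of libraries of a group agreed within sampling noise (chi-square per degree of freedom 1.65 to 11.5).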

Additional observations from a re-analysis of the deposited data

Results flagged for a closer look

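These results stand out because the response to JIB-04 differed between the lines by a test of the difference itself, written as OCI-Ly1 minus TMD8 on the log2 scale (edgeR's quasi-likelihood test, Benjamini-Hochberg adjustment). At 150 nM the difference was 0.69 for CENPA, 0.48 for H2AFZ, 0.32 for H2AFY, 0.24 for H3F3B and -3.44 for H1F0. At 500 nM it was 1.28 for CENPA, 0.38 for H2AFZ, 0.35 for H3F3B, 0.24 for H2AFY and 0.22 for H2AFV, the changes being more negative in TMD8. At 500 nM it was -0.44 for H2AFJ, -0.29 for H1FX and -2.58 for H1F0, the changes being more positive in TMD8. Both H1F0 values rest on 2 counts in the vehicle libraries of TMD8 and depend on the prior count of the fit. At 150 nM 5 of the 10 genes were called and at 500 nM 8, beside 23.3% and 46.4% of all genes tested. At 500 nM DESeq2 called 6 (5 positive, 1 negative), losing H1FX and H1F0, beside 41.7% of the genes it tested. With 1 library left out 6 to 9 were called at 500 nM, the fewest without TMD8 DMSO replicate 1, where the calls of H1FX (-0.22, adjusted p = 0.0904) and H1F0 were lost. The call of H1FX was also lost without OCI-Ly1 DMSO replicate 2, OCI-Ly1 500 nM replicate 3 or TMD8 500 nM replicate 3. That of H1F0 was also lost without OCI-Ly1 DMSO replicate 3, TMD8 DMSO replicate 2 or TMD8 500 nM replicate 1 or 2 (adjusted p up to 0.0989).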

How the results depend on the processing

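Of 1557 alternative values for single genes, 1447 kept their direction and side of the threshold (37 of them uncalled values that changed sign), 60 were no longer called, 33 became called and 17 reversed. At 150 nM in OCI-Ly1 the count of variants called rose from 0 to 1 with no filter on low counts and to 1 with only the compared groups. The count of all genes called there was 139, against 244 by DESeq2, 323 with no filter, 61 on log2(TPM + 1), 74 on log2(TPM + 0.1), 50 on centred TPM and 81 with only the compared groups, and 65 (without 150 nM replicate 2) to 339 (without 150 nM replicate 1) with 1 library left out, with 86 without DMSO replicate 2. At 500 nM in OCI-Ly1 8 variants were called, and 5 on log2(TPM + 1) and 5 on log2(TPM + 0.1). Of all genes, 53.6%, 51.0% and 50.7% were called in these fits.

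With H3F3AP4 added, H3F3A reversed to -0.23 for 500 against 150 nM in OCI-Ly1, to 0.26 for the line difference at 150 nM and to 0.10 between the vehicle groups. The H3F3A row alone, with 1 library left out, ran from -0.27 (without OCI-Ly1 500 nM replicate 2) to 0.27 (without OCI-Ly1 500 nM replicate 3) for 500 against 150 nM in OCI-Ly1. On log2(TPM + 1) and log2(TPM + 0.1), H2AFJ in TMD8 at 500 nM was -0.20 and -0.24. The line differences at 500 nM were 0.42 and 0.12 for H1F0, 0.20 and 0.18 for H1FX, and 0.088 and 0.11 for H2AFJ. Between the vehicle groups H2AFJ was -0.42 and -0.48 and H2AFX -0.16 and -0.16, while H1F0 was 0.37 on centred TPM. The cause was not tested.

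Scaling moved the balance of calls. The share of called genes that were higher was 51.6% in OCI-Ly1 at 500 nM, 64.0% by library size, 71.9% on log2(TPM + 1) and 32.3% on centred TPM. The same shares were 84.2%, 87.4%, 98.4% and 98.0% in OCI-Ly1 at 150 nM and 54.3%, 67.9%, 72.7% and 31.8% between its doses. In TMD8 they were 43.5%, 60.5%, 21.2% and 36.0% at 150 nM, 49.4%, 59.4%, 18.8% and 48.4% at 500 nM, and 47.9%, 48.7%, 10.4% and 41.7% between doses. The median of all genes shifted to 0.10 in OCI-Ly1 and -0.22 in TMD8 at 500 nM on log2(TPM + 1), and to 0.13 in TMD8 by library size.

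Same-numbered libraries correlated between -0.05 and 0.15 in their deviations from the group means, so the numbers were not taken as pairs. With the replicate block, 9 variants were called in OCI-Ly1 at 500 nM, H3F3A being added (-0.39, adjusted p = 0.00775), and 207 genes in all at 150 nM. Counting depth limits H1F0, at 0 to 2 counts in the vehicle libraries of TMD8.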

Other observations

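The tables hold 14 further histone variant genes, mostly of testis and oocyte. Their counts were at most 26 in any library, and H2BFWT was at 0 in all 18. HIST1H1T, the testis linker histone, had 1, 1 and 3 counts with DMSO, 6, 2 and 3 at 150 nM, then 24, 25 and 26 at 500 nM in OCI-Ly1. In TMD8 it had 9, 4 and 4, then 9, 10 and 16, then 15, 14 and 4. The OCI-Ly1 vehicle libraries were at or under the floor of 3 counts, so no fold is given. The TMD8 change at 500 nM was 1.397 (SE 0.44, edgeR adjusted p = 0.0114), although the counts of the 500 nM and DMSO groups overlapped. H3F3C, an H3.3-like gene, stood at 9, 12 and 8 counts with DMSO and 15, 9 and 13 at 500 nM in OCI-Ly1.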
